A study of Mus musculus with 8 samples.

Results

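Binding of Brdt in male germ cells of the mouse was mapped by ChIP-seq, and the subject here is the proximal end of chromosome 14 from 3 to 9 Mb (mm9), next to the centromere. The lists of Brdt-bound islands held a dense block there, and the interval was chosen by that covered share in these same lists. Its members were all islands that start in this interval, 1162 of 426082 in the 4 anti-Brdt lists together. They were 345 of 201828 in round spermatids and 114 of 112671 in spermatocytes of mice with Brdt lacking its first bromodomain (BD1del), and 391 of 74968 in round spermatids and 312 of 36615 in spermatocytes of wild-type mice. Chromosome 14 from 9 to 20 Mb served as flank.

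Round spermatids are post-meiotic and spermatocytes meiotic cells, both isolated on a BSA gradient. The wild-type mice were C57BL/6, with fractions of 10 mice pooled and chromatin digested with MNase to fragments of about 200 bp. For BD1del the labels give the genotype only, and strain, pool size and chromatin preparation are not given in the sources used here. The 8 libraries were 1 anti-Brdt ChIP and 1 input for each stage and genotype, so no value has a replicate error and no difference between groups was tested. Names of the lists give paired F3 and F5 tags for BD1del and F3 tags of pairs for wild type, so genotype and read set cannot be told apart.

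Brdt is the testis-specific member of the BET family of proteins, which bind acetylated histone tails through their bromodomains. Its first bromodomain binds acetylated histone H4, and male mice that lack it are infertile. Mouse autosomes carry their centromere at one end, so the block is the first assembled sequence of the chromosome. An island is a run of windows of 200 bases enriched in ChIP reads, in which gaps of up to 600 bases are bridged.

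The chromosome end in question is known for many near-identical gene copies, among them the takusan genes, a family with a member known to regulate synaptic activity in mouse neurons. RefSeq promoter windows of 300 bases were at hand for 1092 genes of the whole of chromosome 14 in another build, GRCm38.p6. Of these, 132 (12.1%) had a window at least 90% identical at another gene of the chromosome, and 37 (3.39%) had an identical one. Because the build differs, no island was placed on a gene, and which of these genes lie in the block was not determined.

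The largest group of such windows had 21 members, and 3 are shown to give the closeness of such copies as letters. Each runs from 250 bases before to 50 after the gene start, 5′ to 3′ on the gene's own strand. Gm10338 was the member with most such neighbours and, where tied, the lowest summed distance to them, Gm8279 was its closest relative and Gm3278 its most distant. Capitals mark bases that differ from Gm10338 or are inserted relative to it.
Gm10338: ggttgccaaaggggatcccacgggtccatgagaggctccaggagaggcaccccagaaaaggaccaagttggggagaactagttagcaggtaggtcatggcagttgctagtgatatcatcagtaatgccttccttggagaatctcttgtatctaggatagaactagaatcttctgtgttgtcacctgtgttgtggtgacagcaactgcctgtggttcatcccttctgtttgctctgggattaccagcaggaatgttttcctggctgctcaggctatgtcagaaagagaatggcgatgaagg
Gm8279: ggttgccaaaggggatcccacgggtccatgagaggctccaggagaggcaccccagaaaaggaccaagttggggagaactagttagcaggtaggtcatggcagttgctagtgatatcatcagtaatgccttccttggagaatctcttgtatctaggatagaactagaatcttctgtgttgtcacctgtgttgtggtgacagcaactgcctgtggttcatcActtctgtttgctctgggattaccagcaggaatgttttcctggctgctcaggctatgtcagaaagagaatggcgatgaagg
Gm3278: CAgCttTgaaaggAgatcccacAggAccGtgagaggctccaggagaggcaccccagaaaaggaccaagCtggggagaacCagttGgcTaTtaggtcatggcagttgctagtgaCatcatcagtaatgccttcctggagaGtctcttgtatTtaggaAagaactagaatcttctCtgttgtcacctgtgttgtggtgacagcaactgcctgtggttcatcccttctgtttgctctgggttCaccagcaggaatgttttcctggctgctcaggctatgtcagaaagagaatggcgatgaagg
Gm8279 differed from Gm10338 by 1 edit and Gm3278 by 24 (92.0% identity). Gm10338 lies on the minus strand, and the other two lie on the plus strand. How reads that match several places were treated is not given in the sources used here, and whether island counts in the block mix copies was not tested.

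Brdt islands covered most of the block in wild-type spermatocytes, less of it in wild-type round spermatids and little of it in BD1del cells. Islands covered 12.96% of the block in BD1del round spermatids, 5.77% in BD1del spermatocytes, 41.7% in wild-type round spermatids and 67.3% in wild-type spermatocytes. The flank was covered to 3.92%, 5.19%, 3.34% and 2.04% in the same order. The block was thus covered 3.31, 1.11, 12.5 and 33.01 times as densely as the flank. The excess was large in wild type and smallest in BD1del spermatocytes, where it fell below 1 without the 1% of islands densest in control reads (0.896). With islands of fold at least 2 alone, block over flank was 1.80, 0.412, 1.06 and 0.878 in the order used above, so the wild-type spermatocyte excess was reversed too. The block held 0.171% of the islands and 0.513% of the covered bases of the BD1del round spermatid list, and 0.101% and 0.210% of the BD1del spermatocyte list. It held 0.522% and 1.93% of the wild-type round spermatid list, and 0.852% and 3.72% of the wild-type spermatocyte list.

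In bins of 100 kb, coverage was high along nearly the whole block in wild type. Of the 60 bins, 13 were covered to at least 20% in BD1del round spermatids, where 1.68% of all 25830 bins of the genome were. In BD1del spermatocytes 3 bins were, against 2.28% of the genome. In wild-type round spermatids 50 bins were, against 2.33% of the genome, and in wild-type spermatocytes 54, against 3.36%. Of the 110 flank bins, no bin reached 20% in either BD1del list and 1 did in each wild-type list. The median bin of the block was covered to 11.8% and 2.40% in BD1del round spermatids and spermatocytes, and to 45.4% and 73.8% in wild-type round spermatids and spermatocytes. These counts describe a block that was chosen for coverage and support nothing beyond it.

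**Figure D1:**
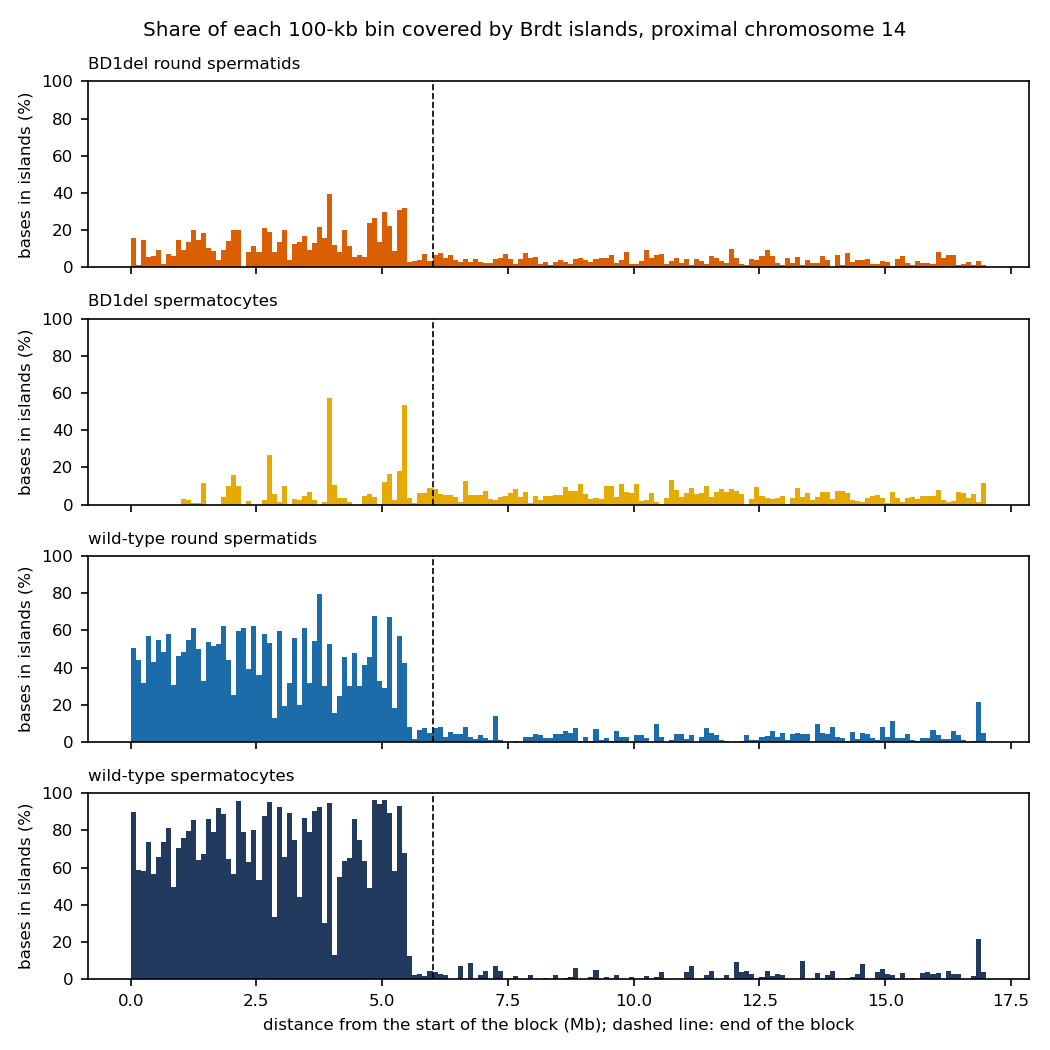
Share of bases in Brdt islands (y axis, %) in each 100-kb bin of the block and of the flank (x axis, distance from the start of the block in Mb), 1 panel per list and 1 bar per bin, 1 library each. Wild-type bars stay high up to about 5.5 Mb from the start and drop before the block's nominal end at 6 Mb (dashed line), while BD1del spermatocytes show 2 bins above 50% and otherwise mostly low bars.

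The dense stretch ended sharply near 8.5 Mb, short of the 9 Mb limit. The last island of at least 10 kb ended at 8490400 in BD1del round spermatids, 8490200 in BD1del spermatocytes, 8490600 in wild-type round spermatids and 8503800 in wild-type spermatocytes. The first 3 of these ends thus lay within 400 bases of each other. From 8.5 to 9 Mb, islands covered 4.04% and 5.16% in BD1del round spermatids and spermatocytes and 5.52% and 4.0% in wild-type round spermatids and spermatocytes. The BD1del values were close to those of the flank, and the wild-type values were above them. Up to 8.5 Mb the covered shares were 13.8%, 5.83%, 45.0% and 73.04% in the order used above. At the 9 Mb limit itself, the last island inside spanned 200 bases in each BD1del list, at folds of 8.38 in round spermatids and 24.8 in spermatocytes, and 2400 and 2600 bases in wild-type round spermatids and spermatocytes, at 1.67 and 2.65. The first islands beyond it had folds of 5.05, 3.82, 6.12 and 2.47 in the same order.

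In spermatocytes, the BD1del block was covered about as sparsely as its flank, while the wild-type block was mostly covered. BD1del spermatocyte islands covered 5.77% of it and wild-type spermatocyte islands 67.3%, a ratio of 0.0858. BD1del was lower in 57 of 60 bins and higher in 3. In the flank the order was the other way round: BD1del was higher in 88 of 110 bins and covered 5.19%, against 2.04% in wild type. In 52 of the 60 block bins, the wild-type bin was covered to at least 20% and at least 2 times as much as in BD1del, as were 1.97% of the bins of the genome. No block bin met the opposite rule, which 0.492% of the genome met.

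BD1del spermatocytes had no island at all from 3 to 4 Mb, where wild-type spermatocytes had 75 islands over 67.9% of the bases. BD1del round spermatids had 37 islands in that megabase. The largest bin deficit lay from 7900001 to 8000000, covered to 0.4% in BD1del spermatocytes and to 94.0% in wild-type spermatocytes. The largest excess, from 8800001 to 8900000, was beyond the dense stretch, at 6.4% in BD1del and 1.8% in wild type. It was tied with the next bin, from 8900001 to 9000000, at 8.80% in BD1del and 4.20% in wild type.

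In round spermatids BD1del coverage was also below wild type. BD1del round spermatid islands covered 12.96% of the block and wild-type round spermatid islands 41.7%, a ratio of 0.311. BD1del was lower in 57 of 60 bins, and in 42 bins the wild-type bin was covered to at least 20% and at least 2 times as much as in BD1del, as were 1.08% of the bins of the genome. No block bin met the opposite rule, which 0.232% of the genome met. The bin from 5200001 to 5300000 held no island in BD1del round spermatids and was covered to 61.4% in wild-type round spermatids. In the flank BD1del was higher in 65 of 110 bins, at 3.92% against 3.34% in wild type. Whether the genotype difference differed between stages was not tested.

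The stages also differed, in opposite directions in the 2 genotypes. In wild type, round spermatid islands covered 41.7% of the block and spermatocyte islands 67.3%, a ratio of 0.620, and round spermatids were lower in 56 of 60 bins. In 13 bins the spermatocyte bin was covered to at least 20% and at least 2 times as much as in round spermatids, against 1.11% of the genome, and no bin met the opposite rule, which 0.0890% of the genome met. In BD1del, round spermatid islands covered 12.96% and spermatocyte islands 5.77%, a ratio of 2.24, and round spermatids were higher in 53 of 60 bins. In 8 bins the BD1del round spermatid bin was covered to at least 20% and at least 2 times as much as in spermatocytes, against 0.0852% of the genome, and no bin met the opposite rule, which 0.306% met. The wild-type gap was widest from 8000001 to 8100000, at 28.8% in round spermatids and 96.6% in spermatocytes. In BD1del the largest excess of round spermatids lay from 7800001 to 7900000, at 26.4% in round spermatids and 4.20% in spermatocytes. The largest excess of BD1del spermatocytes lay from 8400001 to 8500000, at 32.0% in round spermatids and 53.4% in spermatocytes. In the flank both directions were reversed. Round spermatids over spermatocytes was 1.64 there in wild type (3.34% and 2.04% covered) and 0.754 in BD1del (3.92% and 5.19%). Round spermatids were higher in 72 of 110 flank bins in wild type and lower in 68 in BD1del.

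Overlap between the genotypes is given beside the share of the block that the other list covers, and is no result where the values are close. Of the BD1del round spermatid islands, 200 of 345 (58.0%) shared at least 1 base with a wild-type round spermatid island. Those wild-type islands themselves covered 41.7% of the block and held 55.6% of the BD1del round spermatid bases. Of the BD1del spermatocyte islands, 78 of 114 (68.4%) met a wild-type spermatocyte island. The wild-type spermatocyte islands covered 67.3% of the block and held 78.0% of the BD1del spermatocyte bases. A share of islands met by 1 base is not a like measure to a covered share, while a share of bases is. Seen from wild type, 138 of 391 round spermatid islands (35.3%) and 52 of 312 spermatocyte islands (16.7%) met a BD1del island of their stage. Where at least 50% of the wild-type island had to be covered, these shares were 9.21% and 3.21%. By bases, BD1del islands held 17.3% and 6.69% of the wild-type bases and covered 12.96% and 5.77% of the block. These are the same shared bases as the 55.6% and 78.0% above, counted from the other list. Whether they exceed what the covered shares alone would give was not tested. The wild-type islands met by at least 1 base were longer, with medians of 6800 and 23100 bases against 3000 and 7700 for those not met. A longer island is met more easily under that rule, so this difference is partly built in. Of the wild-type round spermatid bases, 91.1% lay in wild-type spermatocyte islands, which covered 67.3% of the block. Of the wild-type spermatocyte bases, 56.4% lay in round spermatid islands, which covered 41.7%. Between the BD1del stages, 13.4% of round spermatid bases and 30.1% of spermatocyte bases were shared. The other BD1del list covered 5.77% and 12.96% of the block.

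Taking bases rather than islands, 1592.2 kb of the block lay in no list and 38.0 kb in all 4. Islands of both wild-type lists and no BD1del list covered 1762.8 kb, and wild-type spermatocytes alone covered 1427.4 kb. Either BD1del list reached 1019.4 kb, of which 146.6 kb lay outside both wild-type lists. In the flank 913.6 of 969 kb lay outside them. Wild-type islands of either stage covered 71.0% of the block and 4.69% of the flank.

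The wild-type islands of the block were long and low, while those of the flank were short and higher. Islands of at least 10 kb numbered 5 in each BD1del list, 70 in wild-type round spermatids and 144 in wild-type spermatocytes, where they made up 80.7% of the covered bases. The flank held 1 such island in each wild-type list and none in the BD1del lists. Median length in the block was 1800 bases in BD1del round spermatids, 2000 in BD1del spermatocytes, 3800 in wild-type round spermatids and 9100 in wild-type spermatocytes. The median deposited fold, ChIP over scaled control reads as the authors gave it, was 2.82, 2.34, 1.52 and 1.35 in that order. In the flank it was 8.01, 3.62, 3.04 and 1.80. The block's islands thus had lower median folds than the flank's in every list.

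**Figure D2:**
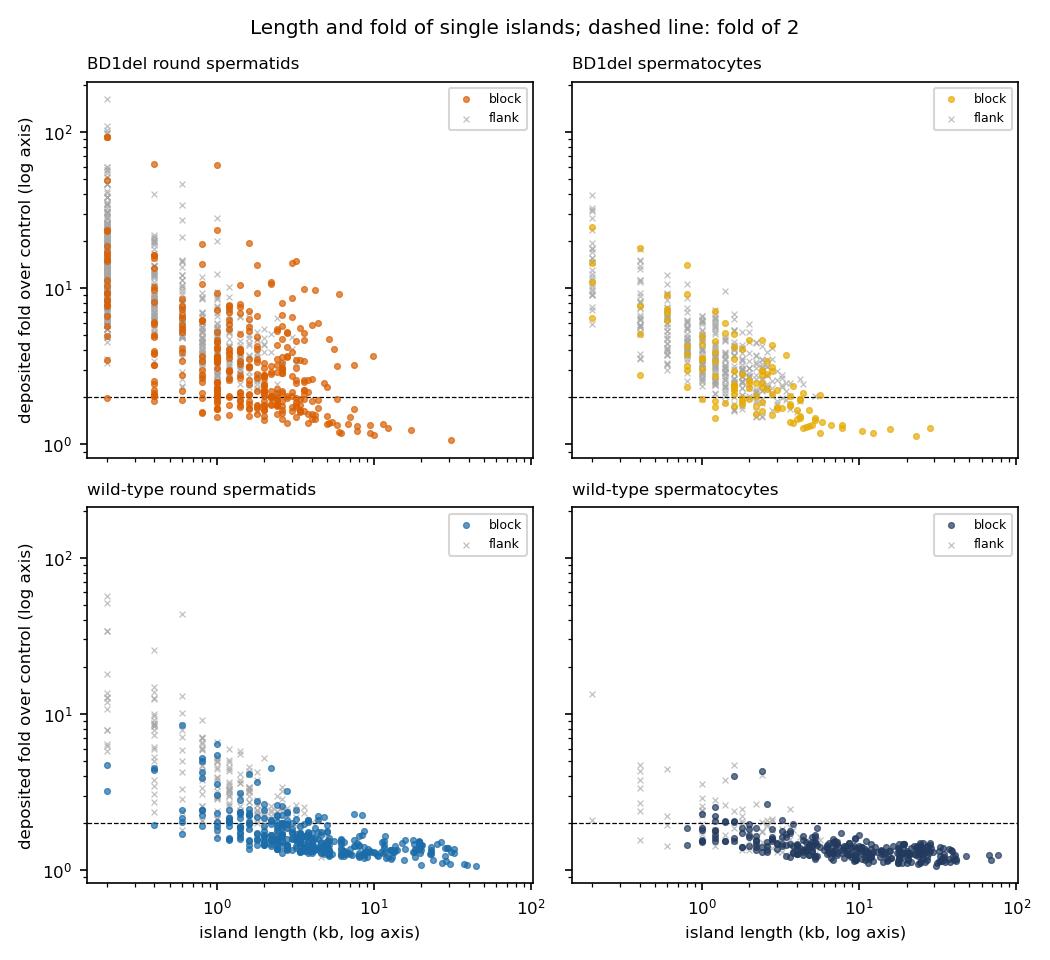
Deposited fold over control (y axis, log) against length in kb (x axis, log) of every island with control reads in the block (coloured circles) and the flank (grey crosses), 1 panel per list. Long islands have folds close to 1 in each panel, and only the wild-type panels hold many islands of 10 kb or more, 70 in round spermatids and 144 in spermatocytes.

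A minimum fold of 2 turned the direction of most of these comparisons. It kept 248 of 345 BD1del round spermatid islands (71.9%) and 69 of 114 BD1del spermatocyte islands (60.5%). In wild type it kept 72 of 391 round spermatid islands (18.4%) and 12 of 312 spermatocyte islands (3.85%). Of all islands of each list it kept 98.3%, 93.5%, 75.3% and 29.2% in the same order. The cut thus fell unequally on the lists across the genome, and whether the turned directions are particular to the block was not tested. The block was then covered to 6.99%, 1.89%, 2.33% and 0.340% in the same order. BD1del over wild type became 3.0 in round spermatids and 5.57 in spermatocytes, and round spermatids over spermatocytes became 6.86 in wild type. The BD1del stage contrast kept its direction, at 3.69. With a deposited FDR of at most 1e-10 the genotype and stage contrasts kept their directions, with covered shares of 4.81%, 1.70%, 13.2% and 39.7%.

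ChIP and scaled control reads were summed over the called islands of the block. Islands are called for an excess of ChIP reads, so a value above 1 was fixed by the calling. The 22905 ChIP and 65077 control reads of BD1del round spermatid islands gave 1.92 (95% interval 1.89 to 1.95). The 11538 and 40641 reads of BD1del spermatocyte islands gave 1.60 (1.57 to 1.63). Wild-type round spermatid islands gave 1.38 (1.37 to 1.39) from 75203 and 205901 reads, and wild-type spermatocyte islands 1.28 (1.27 to 1.29) from 214250 and 299246. The intervals are exact binomial ones that cover counting error only and take the library ratio as known. Fold levels of different lists are not directly comparable, since control depth differed: controls were 5.45, 5.64, 3.79 and 1.79 times as deep as the ChIP libraries in that order.

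Control reads were denser in islands of the block than in islands of the flank in all 4 lists. They averaged 83.7 per kb of block islands and 43.9 per kb of flank islands in BD1del round spermatids, and 117.3 and 52.8 in BD1del spermatocytes. In wild-type round spermatids the values were 82.3 and 46.2, and in wild-type spermatocytes 74.1 and 52.6. The ratios of block to flank of these pooled rates were 1.91, 2.22, 1.78 and 1.41. Without the 1% of islands densest in control reads they were 1.37, 1.62, 1.99 and 1.55. The median island held 51.25 per kb in the block and 42 in the flank in BD1del round spermatids, and 68.6 and 52 in BD1del spermatocytes. In wild-type round spermatids the medians were 64.3 and 31.1, and in wild-type spermatocytes 61.7 and 40.1. ChIP reads per kb were not higher in the same way: block over flank was 0.625, 1.07, 0.983 and 1.04 in that order. The part of control density in the coverage of the block was not tested.

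**Figure D3:**
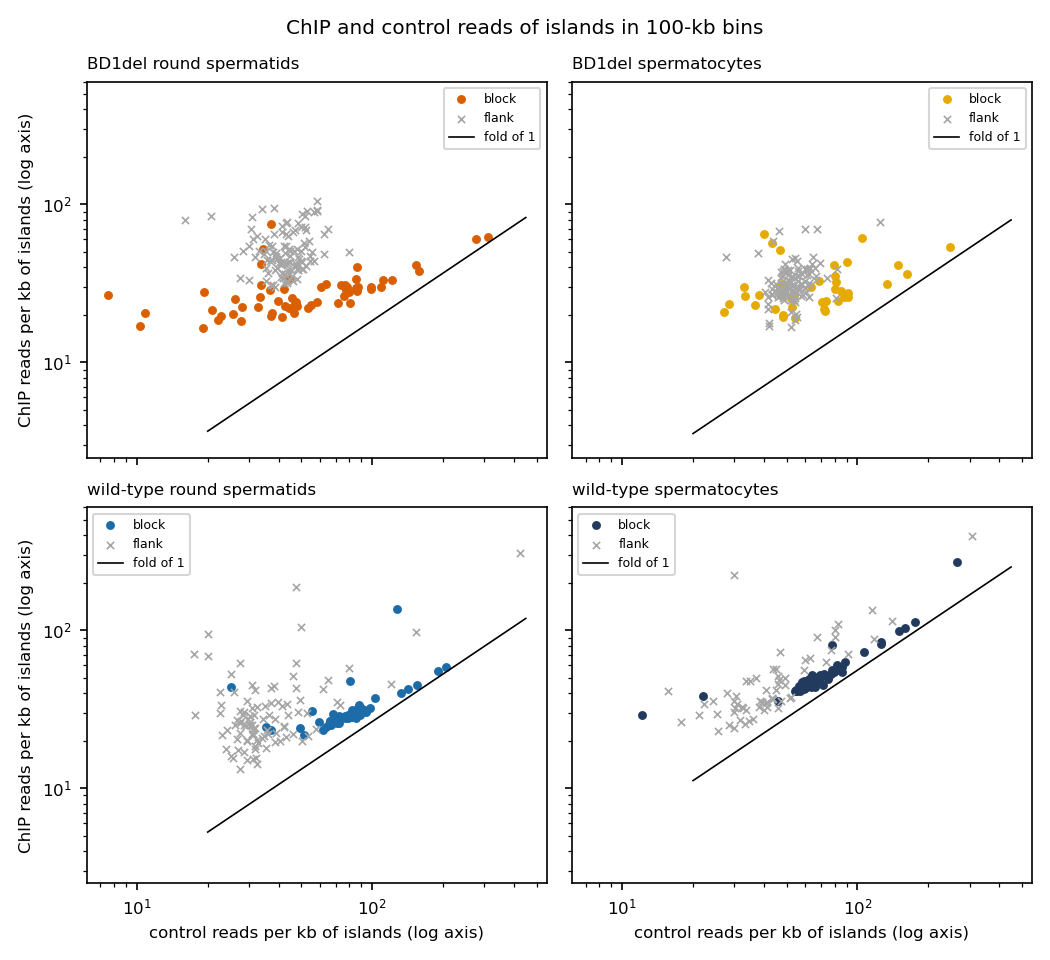
ChIP reads per kb (y axis, log) against control reads per kb (x axis, log) of the islands in each 100-kb bin with control reads, block in colour and flank in grey, 1 panel per list. The line marks a fold of 1 at the list's library ratio; most wild-type block bins lie close above it, and BD1del round spermatid block bins spread from 7.5 to 310.9 control reads per kb.

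Among islands of the block, fold fell as control density rose. With each list split into 3 equal groups by control reads per kb, the median fold in the densest and the sparsest group was 1.80 and 5.91 in BD1del round spermatids and 1.65 and 4.34 in BD1del spermatocytes. In wild-type round spermatids it was 1.38 and 1.89, and in wild-type spermatocytes 1.30 and 1.51. Fold contains control reads in its denominator, so this relation is partly built in.

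A pair of stretches was dense in control reads, though not the densest in every list. In wild-type spermatocytes the bin of most control reads per kb, 265.7, lay outside both, from 8700001 to 8800000, and was covered to 2.80%. From 6900001 over the next 120 kb, islands held 310.3 control reads per kb in BD1del round spermatids, 249.03 in BD1del spermatocytes, 194.9 in wild-type round spermatids and 171.0 in wild-type spermatocytes, at summed folds of 1.10, 1.23, 1.07 and 1.16. This stretch held 28.2% of the ChIP reads and 17.3% of the bases that BD1del spermatocytes had in the block, against 3.56% and 1.70% in wild-type spermatocytes. From 8300001 to 8500000 the islands held 129.1, 143.3, 157.4 and 143.0 control reads per kb, and this stretch held another 20.6% of the BD1del spermatocyte bases. Both stretches were picked after their values were seen. Without the first, the block was covered to 12.4%, 4.87%, 41.7% and 67.5%, so the wild-type values hardly moved.

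Along the block, wild-type values varied less than those of BD1del round spermatids. In segments of 500 kb up to 8.5 Mb, wild-type spermatocyte islands had 57.8 to 105.1 control reads per kb and summed folds of 1.17 to 1.40. Wild-type round spermatid islands had 67.2 to 120.9 and 1.16 to 1.51. In BD1del round spermatids the segment from 3.5 to 4 Mb had 25.03 control reads per kb and a fold of 4.82, and the segment from 6.5 to 7 Mb had 165.1 and 1.32. ChIP reads per kb differed less between these 2 segments, at 22.2 and 40.1. From 8.5 to 9 Mb, beyond the dense stretch, the summed fold was 6.47 and 3.51 in BD1del round spermatids and spermatocytes and 3.15 and 1.91 in wild-type round spermatids and spermatocytes.

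**Figure D4:**
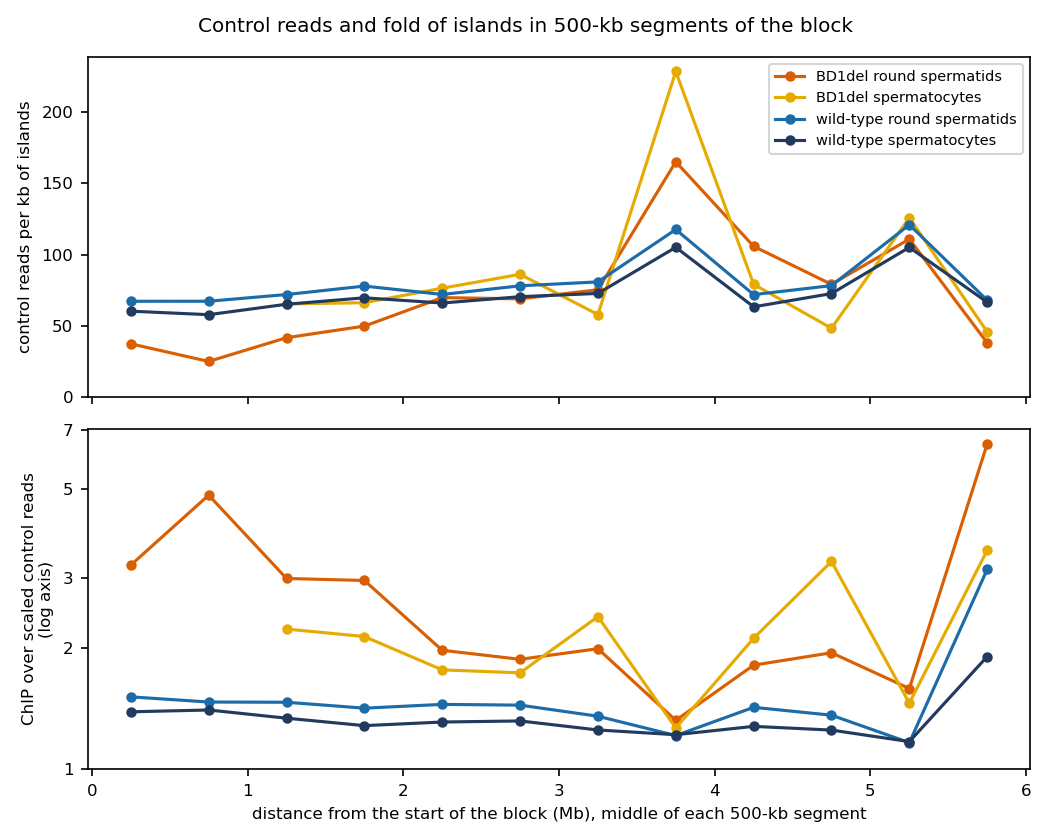
Control reads per kb of islands (upper panel) and summed ChIP over scaled control reads (lower panel, log axis) in the 12 segments of 500 kb of the block, placed by distance from its start in Mb, 1 line per list. The 2 wild-type lines stay at folds of 1.16 to 1.51 up to 5.5 Mb. From the first to the last segment of that stretch they go from 1.51 to 1.16 in round spermatids and from 1.39 to 1.17 in spermatocytes. The BD1del round spermatid line starts between 3 and 5, and the BD1del spermatocyte line begins at 1 Mb because no island lay before it.

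Single islands show both kinds of signal. The longest island of the block was a wild-type spermatocyte island of 76.4 kb, 7782801 to 7859200, with 3662 ChIP and 5249 control reads and a fold of 1.25 (1.20 to 1.30). BD1del round spermatid, BD1del spermatocyte and wild-type round spermatid islands covered 36.4%, 2.09% and 59.9% of it. The next longest, of 69.0 kb from 8007601 to 8076600, had a fold of 1.17 (1.12 to 1.22) and lay to 40.3%, 10.4% and 22.3% in islands of BD1del round spermatids, BD1del spermatocytes and wild-type round spermatids. Here BD1del round spermatids were covered more than wild-type round spermatids. The longest islands of the other 3 lists all lay in the stretch near 7 Mb. They spanned 31.0 kb in BD1del round spermatids at 1.07 (1.02 to 1.12), 28.2 kb in BD1del spermatocytes at 1.28 (1.22 to 1.34) and 44.8 kb in wild-type round spermatids at 1.06 (1.01 to 1.11). The BD1del round spermatid and BD1del spermatocyte islands, 6942201 to 6973200 and 6974201 to 7002400, did not overlap. Most ChIP reads in 1 island, 5019, fell in a wild-type spermatocyte island of 41.0 kb from 6894401 to 6935400, with 7776 control reads and a fold of 1.15 (1.11 to 1.20).

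Islands of high fold with at least 10 control reads were short. In BD1del round spermatids the leading island, 3533201 to 3534200, had 52 ChIP and 12 control reads and a fold of 23.6 (12.4 to 48.6). It lay within islands of both wild-type lists, in the megabase that had no BD1del spermatocyte island. The BD1del spermatocyte island of highest fold, 8307801 to 8308600, had 40 and 16 reads and a fold of 14.1 (7.72 to 26.96), and it too lay within wild-type islands at both stages. In wild-type round spermatids the leading island was 8639001 to 8639600 at 8.52 (4.61 to 16.4), and in wild-type spermatocytes 8622801 to 8625200 at 4.32 (2.76 to 6.91). Both of these lay beyond the dense stretch, where the other lists had no overlapping island.

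The lists give control reads only where an island was called. What fold a list could have called in the rest of the block was therefore not determined, and its part in the contrasts was not tested.

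The dense block at the proximal end of chromosome 1, from 3 to 24 Mb, differed mainly in its spermatocyte coverage and in its pooled control reads. There islands covered 14.2% and 14.95% in BD1del round spermatids and spermatocytes and 37.7% and 47.6% in wild-type round spermatids and spermatocytes. In the chromosome 14 block the values were 12.96%, 5.77%, 41.7% and 67.3% in the same order. BD1del over wild type was 0.376 in round spermatids and 0.314 in spermatocytes, against 0.311 and 0.0858 on chromosome 14. Pooled control reads per kb of islands were lower than in the chromosome 14 block in every list, at 54.8, 62.8, 58.8 and 47.6. The median island held 51.1, 58.9, 50 and 43.6 there, against 51.25, 68.6, 64.3 and 61.7 on chromosome 14. The BD1del round spermatid medians thus hardly differed. These differences have no replicate and no test.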

How the data were processed

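Anti-Brdt ChIP libraries were compared through 1 deposited list each. Control reads entered only as the counts in these lists, and were assumed to come from the 4 input libraries. Lists are SICER island summaries on mm9, per the submitters' processing notes, with a window of 200 and a gap of 600 bases read from the list names. Which control a list used, the SICER version, the aligner and the treatment of duplicate and multiply matching reads are not given in the sources used here. ChIP and control counts per island are whole reads as deposited by the authors, not normalized. The deposited p-value and FDR (under 0.01) compare them, and the deposited ratio (fold) divides ChIP by control reads scaled by library size.

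Islands were assigned by start. Covered shares, reads per kb, bins of 100 kb and overlaps of at least 1 base were computed with Python 3.11.15, numpy 2.4.6, pandas 2.3.3 and scipy 1.17.1, and tested on simulated islands. Library ratios came from counts and folds. Coordinates are 1-based. Promoter windows were compared by edit distance with edlib 1.3.9.post1, the first window of each gene. Islands held 7310429, 6391762, 4506707 and 6476047 ChIP reads in BD1del round spermatids, BD1del spermatocytes, wild-type round spermatids and wild-type spermatocytes. Island intervals are exact 95% binomial intervals, which cover counting error only.

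Members, bins and thresholds were chosen with earlier results of these data known. Named islands were the 2 longest, the 2 highest by fold (control reads of 10 or more) and the one with most ChIP reads per list; named bins were the extremes of coverage and of each difference, of which the leading ones are given. The end at 8.5 Mb, the stretches dense in control reads, and the 500-kb segments were added after the data were seen. A division of the chromosome 14 genes by position is not reported here.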

Additional observations from a re-analysis of the deposited data

Results flagged for a closer look

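The stage contrast in the block ran in opposite directions in the 2 genotypes. Round spermatids over spermatocytes was 2.24 in BD1del (12.96% and 5.77% covered) and 0.620 in wild type (41.7% and 67.3% covered). Each value rests on 1 library per group, so the difference between the genotypes was not tested. With islands of fold at least 2 both ratios were above 1, at 3.69 in BD1del and 6.86 in wild type. That cut kept 75.3% of all wild-type round spermatid islands but 29.2% of all wild-type spermatocyte islands. In BD1del it kept 98.3% and 93.5%.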

How the results depend on the processing

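With a fold of at least 2, BD1del over wild type was 3.0 in round spermatids and 5.57 in spermatocytes, round spermatids over spermatocytes was 3.69 in BD1del and 6.86 in wild type, and block over flank was 1.80 in BD1del round spermatids, 0.412 in BD1del spermatocytes, 1.06 in wild-type round spermatids and 0.878 in wild-type spermatocytes. With an FDR of at most 1e-10 the same 8 ratios were 0.363, 0.0429, 2.82, 0.334, 1.74, 0.648, 14.6 and 80.5, in the order just given. Limiting each list to its 10000 lowest p-values gave 0.0869, 0.000903, 19.1, 0.198, 6.31, 0.198, 19.8 and 67.3; the BD1del spermatocyte list then covered only 0.0367% of the block. Without the 1% of islands densest in control reads, the ratios that moved were 0.268, 0.0690, 2.41, 2.86 in BD1del round spermatids over flank and 0.896 in BD1del spermatocytes over flank. With at least 10 control reads, block over flank was 3.67 in BD1del round spermatids and 12.7 in wild-type round spermatids. Merging islands within 1000 bases gave 12.6 in wild-type round spermatids and 33.9 in wild-type spermatocytes. With the block ended at 8.5 Mb, chosen after seeing the data, BD1del over wild type was 0.0798 in spermatocytes, round spermatids over spermatocytes was 2.36 in BD1del, and block over flank was 3.51, 13.5 and 35.8 without BD1del spermatocytes. The remaining ratios under these settings stayed within the 95% binomial interval of the reported covered share over windows of 200 bases. That interval takes neighbouring windows as independent and the other share as fixed, so it is too narrow. It served only as a rule for which ratios to list. The cause of the shifts was not tested. No paired analysis was possible because each group had 1 library, and none could be left out.

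Bins covered to at least 10% numbered 33 in BD1del round spermatids and 12 in BD1del spermatocytes, and bins covered to at least 30% numbered 3 and 2. In wild-type round spermatids and spermatocytes these thresholds gave 55 and 56 bins, and 46 and 54. Control reads per kb of block over flank stayed above 1 in every list under each setting tried, between 1.32 and 2.28. The lists hold no control reads outside islands, so the depth behind uncovered bases is unknown.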

Other observations

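Across the 55 bins of 100 kb up to 8.5 Mb, the covered shares of the wild-type stages varied together, with a Spearman correlation of 0.653 (Pearson 0.684). For the BD1del stages it was 0.612 (Pearson 0.699). Between genotypes it was 0.181 in round spermatids and 0.0851 in spermatocytes. Neighbouring bins are not independent, and all bins of a list share 1 library, so these are descriptions. In BD1del spermatocytes the covered share of a bin rose with the control reads per kb of its islands (Spearman 0.583, 36 bins with islands), and in BD1del round spermatids it did so too (0.552, 54 bins). In wild-type round spermatids and spermatocytes these values were 0.0727 and 0.312 over 55 bins.

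An island without control reads was found in the block once in each BD1del list. In round spermatids it was 7951601 to 7951800, with 18 ChIP reads, and in spermatocytes 6113801 to 6114000, with 21. Their deposited folds of 392.1 and 473.6 were set against no control read and give no size.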
